A study of Mus musculus with 8 samples.

Results

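The genes examined were those of the machinery that packages odorant receptor (OR) genes into silent chromatin. They were chosen by name for their known roles, at a time when earlier results of these data were known. The 9 listed were Cbx1, Cbx3, Cbx5, Ehmt1, Ehmt2, Suv39h1, Setdb1, Lbr and Smchd1. Of these, 8 were measured, out of 19928 genes tested in all. Suv39h1 had no transcript cluster carrying its name and was not analysed here. Each array held the olfactory mucosa RNA of 1 mouse of postnatal day 3, and mRNA abundance was compared between 4 123Cre:Lhx2fl/fl mice (the mutants, called cKO in the plots) and 4 littermate controls. The controls were 2 Lhx2fl/+ mice and 2 123Cre:Lhx2fl/+ mice, so that all 8 carried at least 1 floxed Lhx2 allele, and all were on a mixed 129 x C57BL/6J background. The 123Cre transgene becomes active when olfactory sensory neurons (OSNs) are immature. Dividing progenitors, basal cells and supporting cells are therefore not targeted, and recombination was partial, since the study's tissue sections still showed Lhx2 mRNA in most OSNs. Which animals were littermates of one another is not given in the labels.

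Each OSN transcribes a single OR allele from a very large gene family, and the OR genes that are not chosen lie in heterochromatin carrying methylated lysine 9 of histone H3 (H3K9) and lysine 20 of histone H4. Methylation of H3K9 is written by enzymes such as Setdb1, Ehmt1, Ehmt2 and Suv39h1. It is read by the heterochromatin protein 1 family, which is encoded by Cbx1, Cbx3 and Cbx5. In mouse OSNs the silent OR genes gather into a few compact foci in the interior of the nucleus, an arrangement that accompanies the low level of the lamin B receptor, Lbr, in these cells.

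Promoter sequences are shown for the 3 genes to which the values below return most often. RefSeq promoter windows of assembly GRCm38.p6 were taken as the 250 bases before each annotated start, which gave 13 windows for the 9 genes, Suv39h1 included. Capitals mark GGGCGG, the GC box, and CCCNNGGG, a core shared with the sites that Ebf (O/E) transcription factors bind, where N is any base and both strands were searched. Cbx3 and Cbx5 have 2 windows each, of which the one with more matches is shown. The Cbx3 window printed lies at chr6:51470366-51470615 on the plus strand, that of Cbx5 at chr15:103239853-103240102 on the minus strand and that of Lbr at chr1:181842402-181842651 on the minus strand, each printed 5′ to 3′ on the strand of its gene.
Cbx3: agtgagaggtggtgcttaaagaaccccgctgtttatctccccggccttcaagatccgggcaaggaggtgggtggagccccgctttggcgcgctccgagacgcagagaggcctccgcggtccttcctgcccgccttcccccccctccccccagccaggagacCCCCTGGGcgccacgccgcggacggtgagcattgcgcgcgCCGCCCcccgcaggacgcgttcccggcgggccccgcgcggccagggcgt
Cbx5: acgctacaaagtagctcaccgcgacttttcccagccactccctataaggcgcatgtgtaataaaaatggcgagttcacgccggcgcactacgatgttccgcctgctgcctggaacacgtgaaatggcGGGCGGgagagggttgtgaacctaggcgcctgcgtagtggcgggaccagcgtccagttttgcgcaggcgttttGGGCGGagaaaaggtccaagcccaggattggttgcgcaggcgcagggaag
Lbr: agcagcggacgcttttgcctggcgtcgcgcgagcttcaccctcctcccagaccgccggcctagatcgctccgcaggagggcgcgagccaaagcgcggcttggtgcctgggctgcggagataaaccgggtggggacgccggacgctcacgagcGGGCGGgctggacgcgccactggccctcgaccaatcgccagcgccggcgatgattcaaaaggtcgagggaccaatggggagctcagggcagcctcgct
A GC box was found in 12 of the 13 windows, against 32.7% of all 32841 promoter windows, and the second Cbx3 window was the one without a match to either motif. The median GC content was 67.6% over the 13 windows and 52.4% over all windows, but 3 of the 13 lay below the median of all windows, the single Cbx1 window at 49.6%, the Cbx5 window not shown at 51.2% and one of Suv39h1 at 51.6%. The homeodomain core TAATTA, which resembles the sites that Lhx2 binds, was in 0 of the 13 windows, against 4.84% of all windows. CCCNNGGG was found in 2 of 13 windows, those of Cbx3 (starting at position -89 from the start site) and Smchd1, against 11.8% of all. These matches are descriptions of letters within a short window and say nothing of binding.

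No single one of the 8 measured heterochromatin genes differed detectably between 123Cre:Lhx2fl/fl mice and littermate controls. By limma, 0 of 8 passed an adjusted p under 0.01 (Benjamini-Hochberg over all genes), where 2.13% of all genes tested did so. At an unadjusted p under 0.05 the count was also 0 of 8 in either direction, where 9.87% of all genes were lower and 5.13% higher in 123Cre:Lhx2fl/fl mice. The 4 mutant arrays lay entirely to one side of the 4 control arrays in 0 of 8 genes, against 11.6% of all genes. These shares of all genes include the OR genes, most of which were lower in the mutants. OR genes made up 306 of the 424 genes called and 938 of the 2989 with an unadjusted p under 0.05. They also made up 815 of the 2313 genes whose groups did not overlap. With only 8 genes, counts of 0 do not set them apart from all genes. The median difference over the 8 genes was 0.03 on the log2 scale, and that over all genes was also 0.03. The median size of the difference, regardless of sign, was 0.04 for the 8 genes and 0.06 for all genes. The array values of each gene are given below on the log2 scale, for 123Cre:Lhx2fl/fl mice 1 to 4 and then for controls 1 to 4, and the difference is always mutant minus control.

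**Figure D1:**
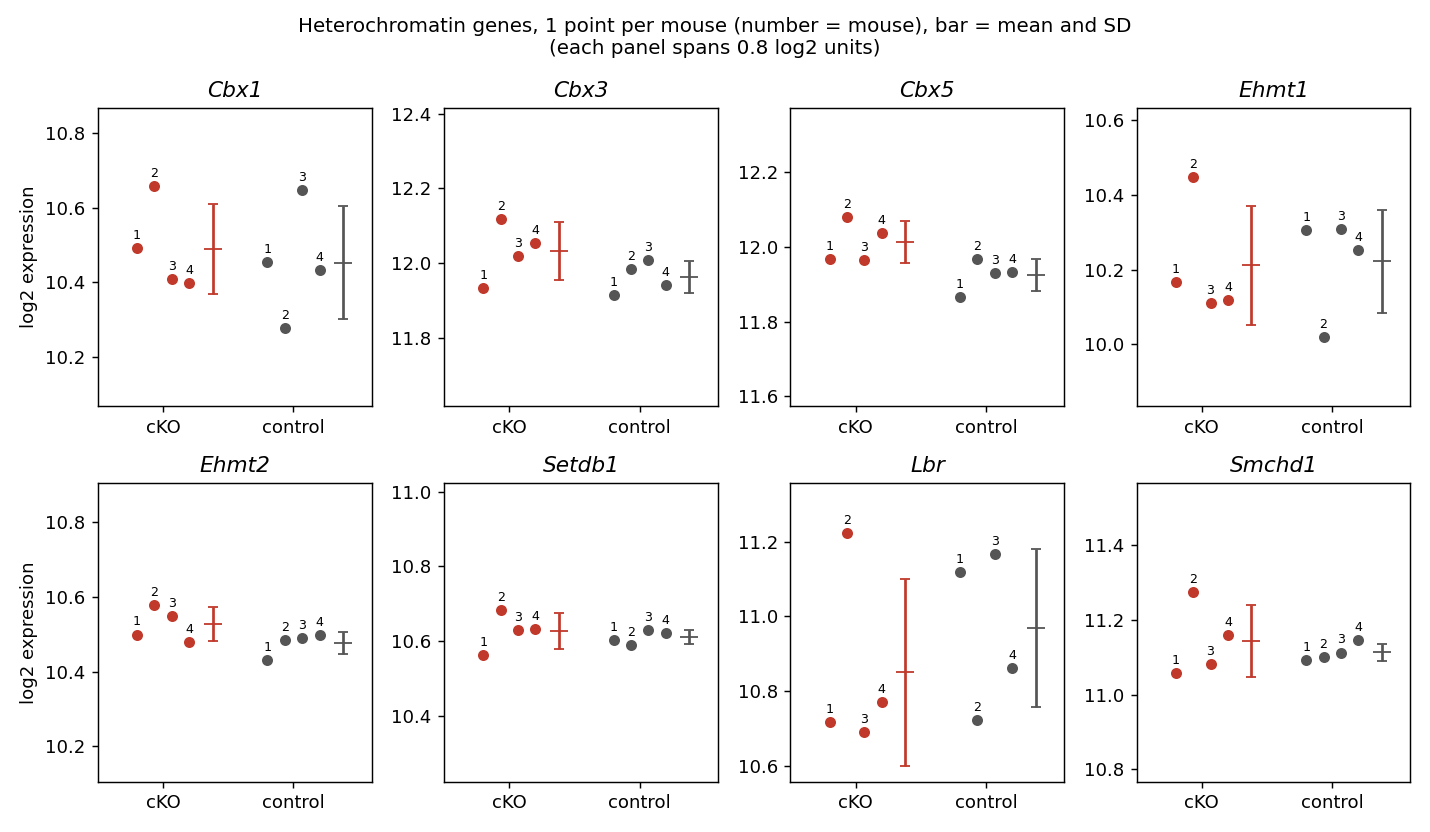
The log2 expression of the 8 measured heterochromatin genes, with 1 point per mouse, 123Cre:Lhx2fl/fl mice (cKO) left of littermate controls, and the mean with SD (n = 4 each) beside the points. Every panel spans the same range of log2 units. The groups overlap in all 8 panels, and mouse 2 of the cKO group is the highest point in each.

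Of the readers of H3K9 methylation, Cbx5 and Cbx3 had the smallest p-values of the 8 genes, and neither passed the test. Cbx5 encodes HP1 alpha, which is concentrated in pericentromeric heterochromatin. It read 11.97, 12.08, 11.96 and 12.04 in 123Cre:Lhx2fl/fl mice, against 11.87, 11.97, 11.93 and 11.93 in controls. The groups met only where control 2 edged above mutant 3. The difference of Cbx5 was 0.09 (SE 0.046, 95% interval -0.02 to 0.19, adjusted p = 0.438 by limma). On a linear scale this was 6.34% more in the mutants, with an interval from -1.11% to 14.3%.

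Cbx3 encodes HP1 gamma, which is found in euchromatin as well as heterochromatin. Its brightest cluster read 11.93, 12.12, 12.02 and 12.05 in 123Cre:Lhx2fl/fl mice, against 11.91, 11.98, 12.01 and 11.94 in controls. Mutants 2, 3 and 4 were above all controls, while mutant 1 lay among them. The difference of Cbx3 was 0.07 (SE 0.051, 95% interval -0.05 to 0.18, adjusted p = 0.613 by limma). Cbx1, which encodes HP1 beta, read 10.49, 10.66, 10.41 and 10.40 in 123Cre:Lhx2fl/fl mice, against 10.45, 10.28, 10.65 and 10.43 in controls. Here the highest and lowest arrays of each group were farther apart than in Cbx3 or Cbx5, and the mutants lay inside the control range apart from mouse 2. The difference of Cbx1 was 0.04 (SE 0.087, 95% interval -0.16 to 0.23, adjusted p = 0.896 by limma).

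Cbx3 was measured by 7 transcript clusters that carry its name, more than any of the other 7 genes. The genome holds near-identical copies of this gene, the clusters may share target sequence, and which locus each cluster measures was not established. Values of 1 pair of these clusters were the same in all arrays. The clusters' mean levels ranged from 9.48 to 12.00, but their differences between mutants and controls ranged only from 0.07 to 0.09, and 0 of 7 had an unadjusted p under 0.05 by limma. The clusters are not independent measurements, and their lines run nearly parallel in the plot of all 7.

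**Figure D2:**
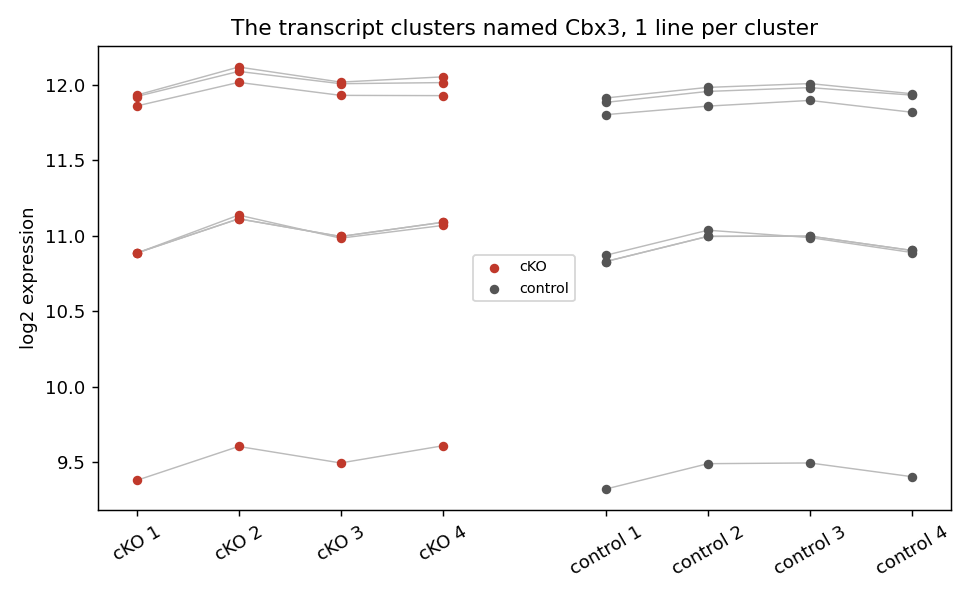
The log2 expression of the 7 transcript clusters named Cbx3, with 1 line per cluster across the 4 123Cre:Lhx2fl/fl mice (cKO) on the left and the 4 controls on the right, and lines drawn within a group only to join a cluster's points. The clusters differ in level between 9.48 and 12.00, while their differences between the groups lie between 0.07 and 0.09; the lines of the pair with the same values coincide.

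Among the writers of H3K9 methylation, Setdb1 and Ehmt2 gave narrow intervals and Ehmt1 a wide one. Setdb1, which trimethylates H3K9 together with the corepressor Trim28, read 10.56, 10.68, 10.63 and 10.63 in 123Cre:Lhx2fl/fl mice, against 10.60, 10.59, 10.63 and 10.62 in controls. The 4 controls fell within the range of the 4 mutants. The difference of Setdb1 was 0.02 (SE 0.042, 95% interval -0.08 to 0.11, adjusted p = 0.907 by limma), which on a linear scale spans -5.30% to 7.97%. Its SD within the groups was 0.037, smaller than that of all but 3.86% of genes.

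Ehmt2 encodes G9a, which forms a heterodimer with the product of Ehmt1 and adds the mono- and dimethyl marks. It read 10.50, 10.58, 10.55 and 10.48 in 123Cre:Lhx2fl/fl mice, against 10.43, 10.49, 10.49 and 10.50 in controls. Mutants 1, 2 and 3 were above every control, mutant 1 by very little, and mutant 4 was below 3 of them. The difference of Ehmt2 was 0.05 (SE 0.042, 95% interval -0.05 to 0.15, adjusted p = 0.667 by limma). Ehmt1, which encodes the partner enzyme GLP, read 10.17, 10.45, 10.11 and 10.12 in 123Cre:Lhx2fl/fl mice, against 10.31, 10.02, 10.31 and 10.25 in controls. Mutants 1, 3 and 4 lay below controls 1, 3 and 4, whereas mutant 2 held the highest value and control 2 the lowest. The difference of Ehmt1 was -0.01 (SE 0.094, 95% interval -0.22 to 0.20, adjusted p = 0.978 by limma). Although the 2 enzymes act as a pair, the SD within groups was 0.149 for Ehmt1 and 0.039 for Ehmt2.

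Lbr, which tethers peripheral heterochromatin to the inner nuclear membrane, varied most. It read 10.72, 11.22, 10.69 and 10.77 in 123Cre:Lhx2fl/fl mice, against 11.12, 10.72, 11.17 and 10.86 in controls. Mutants 1, 3 and 4 lay close together with control 2, whereas mutant 2 was just above controls 1 and 3. The difference of Lbr was -0.12 (SE 0.14, 95% interval -0.44 to 0.20, adjusted p = 0.772 by limma), or -7.85% on a linear scale with an interval from -26.1% to 14.9%. The SD of Lbr within the groups, 0.232, was higher than that of 92.4% of all genes. Since the targeted OSNs are one cell type among many in the mucosa, fewer cells of a type that contains an mRNA and less of that mRNA per cell cannot be told apart for Lbr or any other gene here.

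Smchd1 encodes a noncanonical SMC protein that acts on the inactive X chromosome and in the repression of clustered gene families. It read 11.06, 11.28, 11.08 and 11.16 in 123Cre:Lhx2fl/fl mice, against 11.09, 11.10, 11.11 and 11.15 in controls. The 4 controls lay close to one another, inside the wider range of the mutants. The difference of Smchd1 was 0.03 (SE 0.055, 95% interval -0.09 to 0.16, adjusted p = 0.853 by limma). A second, slightly dimmer cluster of Smchd1 gave a difference of 0.05 and was not called either.

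**Figure D3:**
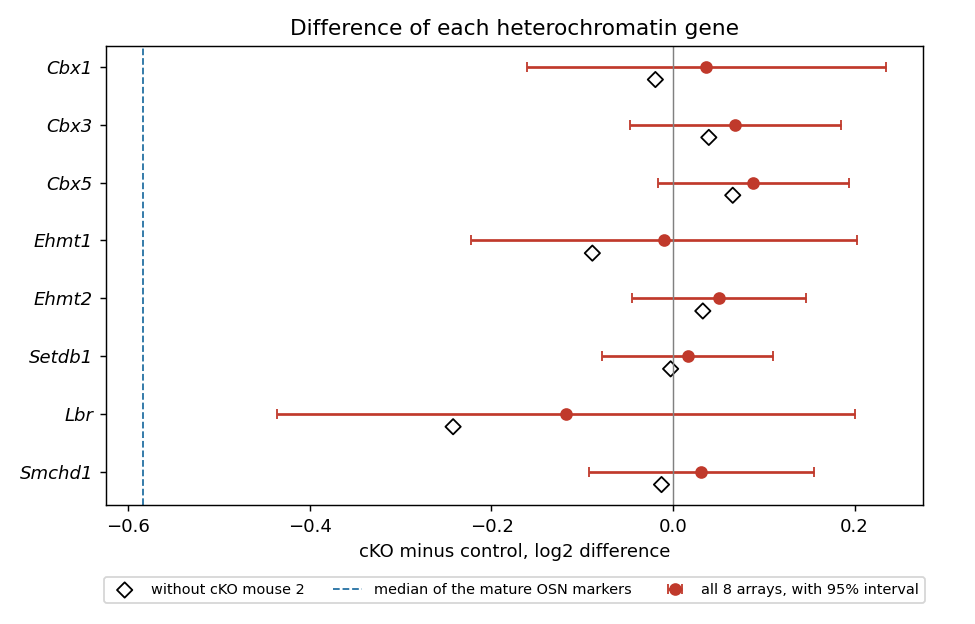
The log2 difference of each heterochromatin gene, 123Cre:Lhx2fl/fl mice (cKO) minus littermate controls, with its 95% interval from limma (filled points, n = 4 each) and the difference without cKO mouse 2 (open diamonds). All 8 intervals include 0, and the dashed line at -0.58, the median difference of the 22 listed mature OSN markers, lies left of every interval.

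The intervals set out what these arrays could and could not show. A gene with the spread of Setdb1 would have been called at a difference of 0.25, and one with the spread of Lbr only at 0.84. The largest fall that the 95% intervals left possible was that of Lbr, at -26.1%, and the largest rise was that of Cbx1, at 17.7%. The OR genes give a scale for these widths: of 1015 OR genes, 306 were called, and the median difference over all 1015 was -0.86. The median difference of 22 listed mature OSN markers was -0.58, below the lower end of the interval of each of the 8 genes, the lowest of which was -0.44. For a much longer list of mature OSN mRNAs, the study reported a smaller average fall in these mice. A fall of that smaller size lies within the interval of Lbr and, narrowly, within that of Ehmt1, whose lower end was -14.3%. Because recombination was limited to a fraction of OSNs, a change within those cells alone would appear smaller in the whole mucosa.

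One mouse stood above the others in these genes. Mutant 2 had the highest value of all 8 arrays in 8 of 8 heterochromatin genes, a count noticed after the values were seen. Over all genes mutant 2 was the highest array in 19.5%, and over the 113 measured genes of related chromatin pathways in 32.7%. The excess of mutant 2 over the mean of the other 3 mutants was 0.50 in Lbr, 0.32 in Ehmt1, 0.23 in Cbx1 and 0.17 in Smchd1. In Cbx3 it was 0.12, in Cbx5 0.09, and in Setdb1 and Ehmt2 0.07 each. Without mutant 2 the difference became -0.24 for Lbr and -0.09 for Ehmt1, and those of Cbx1 (-0.02), Smchd1 (-0.01) and Setdb1 (-0.0026) turned below 0, while Cbx5 (0.07), Cbx3 (0.04) and Ehmt2 (0.03) stayed above it. By limma, 0 of 8 genes were called without it, and the adjusted p of Lbr was 0.390, its lowest under any alternative. When each other array was left out in turn, the difference of Lbr stayed below 0, at -0.05 or lower.

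Mutant 2 also differed from the other mutants outside these genes. Lhx2 read 13.03, 12.55, 13.01 and 13.02 in 123Cre:Lhx2fl/fl mice, against 13.14, 13.09, 13.20 and 13.13 in controls, so that mutant 2 was the lowest of all (difference -0.24, SE 0.105, adjusted p = 0.337 by limma). Omp, the olfactory marker protein of mature OSNs, read 12.68, 12.00, 12.62 and 12.59 in the mutants, against 13.40, 13.39, 13.49 and 13.47 in controls (difference -0.97, SE 0.138, adjusted p = 0.00605 by limma). The mean of the 22 mature OSN markers was 10.74 in mutant 2, between 10.74 and 11.23 over the mutants and between 11.64 and 11.72 over the controls, and at an adjusted p under 0.01 by limma 6 of 22 fell and 0 rose (18 lower and 1 higher at an unadjusted p under 0.05). The mean of 23 markers of dividing cells was 11.07 in mutant 2, between 10.90 and 11.07 over the mutants and between 10.79 and 10.92 over the controls. Of these 23, 0 were called and 9 were higher at an unadjusted p under 0.05, against the 5.13% of all genes given above, with a median difference of 0.13. Of 18 immature OSN markers, 1 was called lower by limma, and 5 were lower and 1 higher at an unadjusted p under 0.05 (median difference -0.01). Their mean was 11.83 in mutant 2, between 11.83 and 11.99 over the mutants and between 11.98 and 12.06 over the controls. Of 11 OSN progenitor markers, 0 were called, and 1 was lower and 5 higher at the same unadjusted p (median difference 0.12). Over all genes 9.87% were lower and 5.13% higher. The part of cell composition in the values of the heterochromatin genes was not tested.

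Mutant 2 carried the title letter B, with controls 1 and 2, and was female by its Xist and Eif2s3y mRNA, with controls 1 and 4. The meaning of the letter is not stated in the labels. Within letter A, which holds 3 mutants and 2 controls, the difference of Lbr was -0.29, that of Ehmt1 -0.15 and that of Cbx1 -0.11. Within letter B, which holds 1 mutant and 2 controls, the same differences were 0.30, 0.29 and 0.29. Among males, again 3 mutants and 2 controls, Lbr differed by -0.22, Ehmt1 by -0.03 and Cbx1 by -0.03. Among females, 1 mutant and 2 controls, they differed by 0.23, 0.17 and 0.22. Cbx5, Cbx3 and Ehmt2 had differences above 0 within both letters and within both sexes. Some of these were close to 0, such as 0.005 for Cbx3 among males and 0.015 for Ehmt2 within letter A. The 3 mutants of letter A were also the 3 males, so the splits by letter and by sex share their mutants. With mutant 2 as the only mutant of its letter and of its sex, neither can be told apart from that mouse.

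Within the groups, Lbr, Ehmt1 and Cbx1 rose and fell on some of the same arrays. Relative to the mean of its group, Lbr lay at -0.13, 0.37, -0.16 and -0.08 in the mutants and at 0.15, -0.25, 0.20 and -0.11 in the controls. Ehmt1 lay at -0.04, 0.24, -0.10 and -0.09 in the mutants and at 0.08, -0.20, 0.09 and 0.03 in the controls. All 3 genes were high in mutant 2 and control 3 and lowest among controls in control 2. With each gene's values centred over the 8 arrays and scaled to unit SD, the root mean square difference between profiles was 0.401 for Ehmt1 and Lbr and 0.479 for Cbx1 and Ehmt1. Cbx1 and Lbr were farther apart, at 0.609. The next closest pairs were Setdb1 with Smchd1 (0.483) and Cbx3 with Cbx5 (0.485), and the most distant pair was Cbx5 with Lbr (1.34). By the same measure over all genes, the profiles most like that of Cbx5 were those of Efr3a (0.26), Pus7 (0.275) and Lbx2 (0.308), and those most like that of Cbx3 were Nol8 (0.232), Fam91a1 (0.262) and Nup153 (0.272). These likenesses are over 8 arrays of 1 tissue.

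The 2 control genotypes were also compared, since the 123Cre:Lhx2fl/+ controls carry the transgene and the Lhx2fl/+ controls do not. Of the 8 heterochromatin genes, 0 were called and 0 had an unadjusted p under 0.05 by limma, against 0% and 7.78% of all genes. Cbx1 averaged 10.54 in 123Cre:Lhx2fl/+ controls and 10.37 in Lhx2fl/+ controls (n = 2 each), a difference of 0.17 (SE 0.115, adjusted p = 0.726 by limma). For Lbr the difference was 0.09 with a 95% interval of -0.39 to 0.58, and for Ehmt1 it was 0.12. The remaining 5 genes differed by 0.02 to 0.04. Control genotype coincides with the title letter and cannot be told apart from it.

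The wider chromatin machinery was examined in the same way. Of 120 genes listed in 10 groups, 113 were measured. Of these, 0 passed an adjusted p under 0.01 by limma, where 2.13% of all genes tested did so. Lower and higher at an unadjusted p under 0.05 were 5 and 8 genes, where 9.87% and 5.13% of all genes tested were. The median difference was 0.03, with a range from -0.31 to 0.19. The groups were apart in 10 of 113 genes, against 11.6% of all genes, a share that includes the OR genes. Jarid2, a cofactor of Polycomb repressive complex 2, was the furthest from 0. It read 11.96, 11.69, 11.96 and 11.96 in 123Cre:Lhx2fl/fl mice, against 12.16, 12.22, 12.18 and 12.25 in controls, and every mutant was below every control. The difference of Jarid2 was -0.31 (SE 0.068, adjusted p = 0.0326 by limma), past a threshold of 0.05 but not of 0.01.

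**Figure D4:**
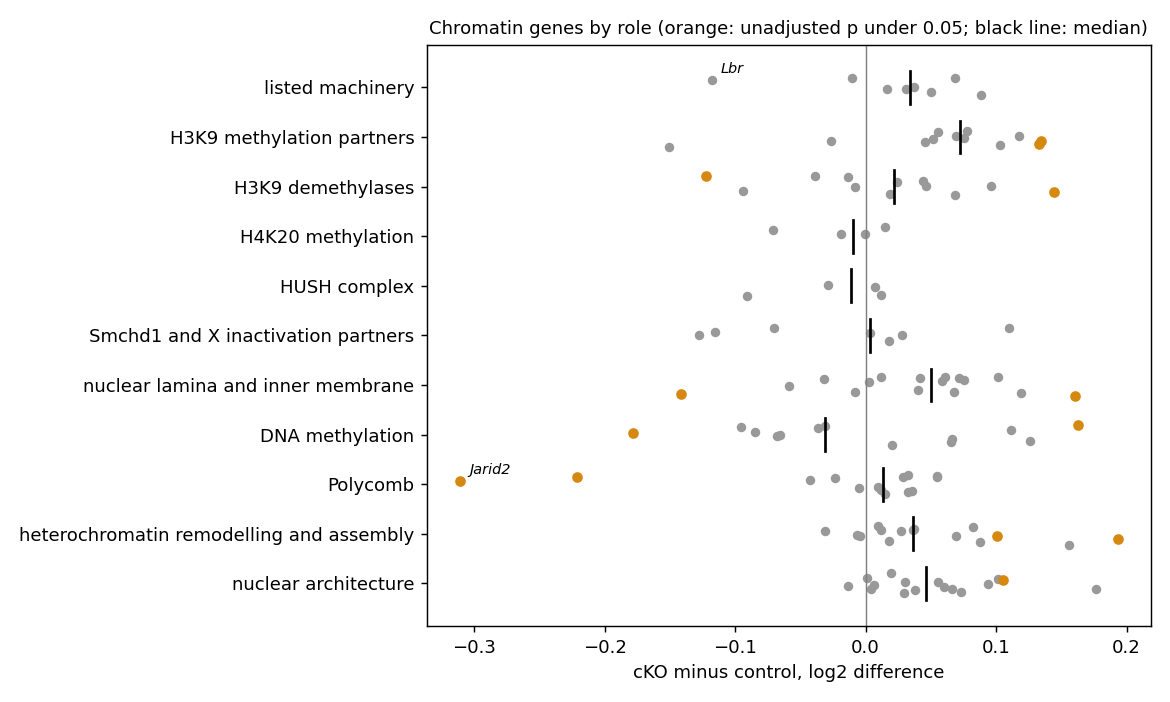
The log2 difference, 123Cre:Lhx2fl/fl mice minus littermate controls, of the 8 heterochromatin genes (top row, listed machinery) and of 113 related chromatin genes in 10 groups, with 1 point per gene, a black line at the median of each row and orange for an unadjusted p under 0.05 by limma. The medians of the rows lie near 0, and Jarid2 at -0.31 is the point farthest from 0.

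In the other groups the gene with the smallest p did not pass either threshold. Among partners of H3K9 methylation this was Mecom, an H3K9 methyltransferase, at 0.13 (adjusted p = 0.274), and among H3K9 demethylases Kdm4d, at 0.14 (adjusted p = 0.169). Kdm4d was dim, averaging 7.36 in the mutants and 7.22 in controls. Kdm1a, the demethylase Lsd1 on which OR gene activation depends in mice, was picked out after its values were seen and differed by 0.04 (adjusted p = 0.722). The H4K20 methyltransferase Kmt5b differed by -0.07 (adjusted p = 0.643), and Tasor of the HUSH complex, which recruits Setdb1, by -0.09 (adjusted p = 0.675).

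Around Lbr in the nuclear envelope, Sun1, an inner membrane protein that links the lamina to the cytoskeleton, read 11.26, 11.29, 11.27 and 11.27 in the mutants, against 11.38, 11.34, 11.52 and 11.42 in controls. The mutants lay close together and below every control, at a difference of -0.14 (adjusted p = 0.186). Zbtb38, which binds methylated DNA, differed by -0.18 (adjusted p = 0.121), and Pcgf5, a Polycomb subunit listed with the partners of Smchd1 on the X chromosome, by -0.13 (adjusted p = 0.355). Chaf1a, the large subunit of the chromatin assembly factor that deposits histones at replication, differed by 0.10 (adjusted p = 0.239), and the histone variant gene H2az1 by 0.11 (adjusted p = 0.274). These p-values are from the same limma fit over all genes.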

How the data were processed

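Olfactory mucosa RNA of 8 mice was hybridized to Affymetrix arrays (Mouse Gene 1.0 ST). The authors deposited log2 values per transcript cluster, which combine the probe sets of all exons of a gene, made per the submitters' processing notes with Affymetrix Expression Console. Not given in the sources used here are its version, background correction and summarization. Of 28312 clusters, the platform annotation gave 1 symbol to 21759, which were used, several to 1605 and none to 4948. Per gene the cluster with the highest mean was kept, giving 19928 genes. Array medians lay between 8.82 and 8.89, and the number of arrays limits the precision. Background signal compresses log2 differences of dim genes.

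Differences (4 mutants, 4 controls) were fitted by lmFit and eBayes of limma 3.58.1 (R 4.3.3), as two-sided tests, and p-values were adjusted by Benjamini-Hochberg over all genes, with a threshold of 0.01. Moderated 95% intervals are from this fit, which was tested on simulated data. Each group's replicates are separate mice numbered in accession order. Promoter sequences are from RefSeq (GRCm38.p6).

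The members and lists were chosen with earlier results of these data known. Genes named were the listed genes, Lhx2 and Omp, and in each related group the gene with the smallest p, since 0 passed the threshold; for Cbx5 and Cbx3, which had the smallest p, the 3 genes with the most similar profiles were named. Alternatives were the methods' t-test, a threshold of 0.05, quantile normalization, eBayes with a trend or robust, centring on genes that encode no chemoreceptor, leaving out dim genes, every or the dimmest cluster, title letter or sex as block, array weights, single control genotypes and each array left out. The methods' t-test was a pooled t-test on the deposited values, without the study's normalization to mature OSN mRNAs.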

Additional observations from a re-analysis of the deposited data

Results flagged for a closer look

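Mouse 2 of the 123Cre:Lhx2fl/fl group stood apart from the other 3 mutants in 2 genes. For Lbr, its value of 11.22 was separated from the nearest mutant by 0.853 of the range of the group, and for Ehmt1 its value of 10.45 was separated by 0.833, both beyond the critical value for 4 samples (Dixon's test at 95%). For Lbr the other 3 mutants lay between 10.69 and 10.77, and for Ehmt1 between 10.11 and 10.17. Over the 8 heterochromatin genes, 16 groups of 4 arrays were examined, and chance marks about 1 in 20 groups. The 2 genes also vary alike across arrays, so these are not independent. What set this mouse apart was not tested.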

How the results depend on the processing

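The count of heterochromatin genes called stayed at 0 under every alternative run. Several alternatives called few or no genes at all, as given below, so a count of 0 under those says little. The lowest adjusted p over the 14 alternatives that kept all mice or 1 control genotype was 0.310, for Cbx5. The number with an unadjusted p under 0.05 was 1, Cbx5, by the methods' t-test and by trended eBayes. Of all 19928 genes, 2955 and 3030 had such a p by these tests. The number whose groups did not overlap was 2 (Cbx5 and Ehmt2) after quantile normalization and 1 (Cbx5) against 123Cre:Lhx2fl/+ controls only. It was 0 to 1 when single arrays were left out (Cbx3 without mutant 1, Cbx5 without mutant 3 or control 2, Ehmt2 without mutant 4). Fewer arrays make such a separation easier to reach, and its share over all genes was not counted under these alternatives. Of the related chromatin genes, 1 (Jarid2) passed a threshold of 0.05.

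Differences near 0 changed sign. That of Setdb1 was -0.0020 when centred on genes that encode no chemoreceptor. That of Ehmt1 was 0.0069 with the title letter as block, 0.040 with sex as block and 0.049 against Lhx2fl/+ controls only. That of Cbx1 was -0.0021 with array weights and -0.050 against 123Cre:Lhx2fl/+ controls only. With single arrays left out, the ranges were -0.021 to 0.10 for Cbx1, -0.089 to 0.023 for Ehmt1, -0.0026 to 0.037 for Setdb1 and -0.013 to 0.059 for Smchd1. The cause of these changes was not tested.

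Over all genes, 424 were called, 1 by the methods' t-test and 1104 at 0.05. That t-test left out the study's normalization to mature OSN mRNAs, so its count is not the study's. Against Lhx2fl/+ controls only or 123Cre:Lhx2fl/+ controls only 0 were called by limma, with 2319 and 3458 at an unadjusted p under 0.05, in fits with fewer samples. With single arrays left out the count ranged from 30 (without control 1) to 676 (without mutant 2), and was 55 without mutant 3, 103 without mutant 4, and 79, 85 and 59 without controls 2, 3 and 4.

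No paired analysis was possible because the labels give mutants and controls no shared replicate numbers and do not say which animals were littermates; the title letter and sex were fitted as blocks instead.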
